A study of Bos taurus with 8 samples.

Results

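The main beta-defensin cluster of cattle lies near the start of chromosome 27, and the loci of this window were followed across 8 tissues. A locus was taken when it carried an Ensembl transcript identifier and lay wholly between positions 4000000 and 7500000 of chromosome 27 in the UMD3.1 assembly. In total, 42 of the 24886 loci with an identifier were members of the window. Of these, 17 spanned under 5000 bases, about the size of a defensin gene, and are called short loci here, while 25 were longer. The longest short locus spanned 4021 bases and the shortest longer locus 7702. The loci were numbered from 1 to 42 along the chromosome.

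RNA-Seq was performed on cattle (Bos taurus) tissues with 1 library per tissue, to relate DNA methylation to gene expression. Of the digestive tract, rumen (a forestomach), abomasum (the stomach with gastric glands) and ileum were taken. Whole testes, uterus (intercaruncular) and mammary gland (parenchyma) came from the reproductive organs and udder, and frontal cortex and nucleated blood cells completed the set. No treatment is named, and the labels of the libraries give no breed, sex or age. According to the study, its methylation samples came from Hereford cattle, a cow and animals related to her. It lists the rumen sample among them as fetal and those of cortex, mammary gland, abomasum and ileum as juvenile, and whether the same animals gave the RNA is not stated. With 1 library per tissue there is no replicate, so no test between tissues was run, and differences between tissues include those between animals.

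Beta-defensins are small cationic peptides held together by disulfide bonds, and they kill bacteria and fungi at epithelial surfaces and inside phagocytes. Cattle carry an expanded family, which includes the tracheal antimicrobial peptide of the airway, the lingual antimicrobial peptide of the tongue, the enteric beta-defensin of the intestine and the peptides stored in the granules of neutrophils. Related peptides are made in the male reproductive tract. The copies resemble each other closely, so reads of a copy can be assigned to another, and the level of a single locus in such a family is uncertain.

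Levels are given as FPKM, the number of fragments per kilobase of transcript and of sequencing depth, as deposited. The scaled depth was lowest for mammary gland (6032000 reads) and highest for rumen (15527000 reads). A count of 0 allows up to 3 reads. That limit was 0.264 to 0.680 FPKM for transcripts of 1000 bases, depending on the library, and 2.25 to 5.79 FPKM for those of 300 bases. The lengths of the transcripts are not in the table, so the limit of a given locus is not known, and such limits cover counting error only. In bulk tissue, fewer cells of a type and less RNA per cell cannot be told apart.

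The identifiers were not paired with gene symbols in the table, and 0 of the 45 identifiers of the members matched the genes that RefSeq lists for assembly ARS-UCD2.0. The lists of defensin genes and of tissue marker genes could therefore not be applied to the loci, and neither the name of the window nor the tissue labels were checked by marker genes. RefSeq places 10 of 18 listed defensin symbols on chromosome 27, among them DEFB1, DEFB4A, DEFB7, DEFB10, DEFB13, LAP (the lingual peptide) and TAP (the tracheal peptide), and these 7 genes span 1677 to 1922 bases. The 3 others, DEFB, SPAG11B and EBD, span more than 5000 bases, so the size limit does not hold every defensin.

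Spans offered a partial comparison with that list. Of 15 members that spanned at least 1000 and under 10000 bases and stood alone in their interval, 7 (46.7%) had a RefSeq gene of chromosome 27 within 1 base of their span. Among 4546 such loci of other chromosomes, 213 (4.69%) did so. Locus 16 spanned 1865 bases, as does LAP, and locus 33 spanned 1677 bases, as does DEFB10. Locus 17 spanned 3944 bases, as does RPL15, a ribosomal protein gene of the same chromosome, and LOC783012 was within 1 base of it. Locus 19 spanned 1818 bases, as does LOC511330, and TAP was within 1 base of it, and DEFB1, DEFB4A and DEFB13 were within 1 base of both locus 21 and locus 23. A shared span does not establish which gene a locus is, since up to 11 genes of other chromosomes had the same span within 1 base, so the loci are called by number and position and not by gene name.

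Not every longer locus could be sized. The table gives 1 interval to all rows that overlap, and 15 of the 42 members shared their interval with another row, in 5 intervals. All 15 were counted as longer loci, although a small gene inside such an interval would be counted so as well. The 17 short loci each stood alone, as did 10 of the 25 longer loci.

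About the same share of the members was expressed as of all loci. At least 1 tissue reached an FPKM of 1 for 28 of 42 members (66.7%), against 70.3% of all loci with an identifier. The same 12 members were at 0 in all 8 libraries (28.6%, against 23.6%), and 2 more stayed above 0 but under an FPKM of 1. The median highest FPKM of the 28 expressed members was 25.1, against 26.9 over all expressed loci. The members were more unequal between tissues. The tau index is 0 where all tissues have equal levels and 1 where 1 tissue holds all of the expression. Its median was 0.746 over the expressed members and 0.436 over all 17484 expressed loci.

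**Figure D1:**
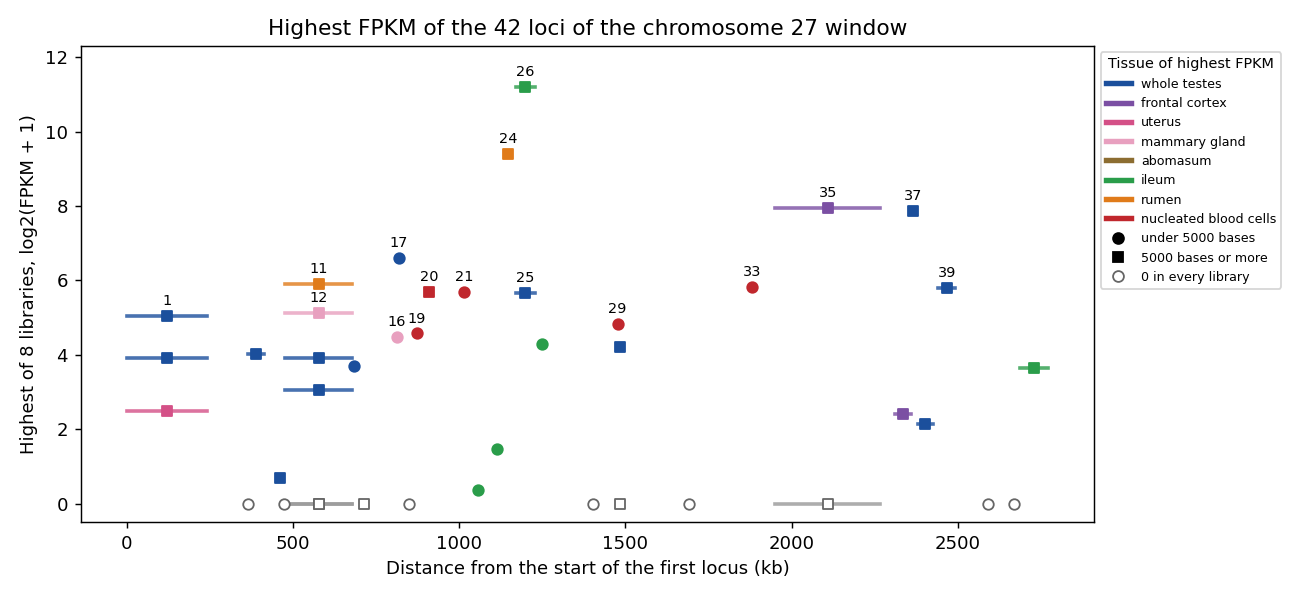
Highest FPKM of each of the 42 loci on the log2(FPKM + 1) scale (vertical axis) against distance along the window in kb (horizontal axis), with colours for the tissue of the highest value, circles for short and squares for longer loci, open symbols for loci at 0 in all 8 libraries, and bars for the interval of a locus. Loci of at least 20 FPKM carry their number, and locus 26 in ileum (2348 FPKM) and locus 24 in rumen (669 FPKM) lie highest.

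Short loci were expressed more often than other loci of their size. Of the 17 short loci, 9 (52.9%) reached an FPKM of 1 in at least 1 tissue, against 33.2% of all loci under 5000 bases, and 7 (41.2%) were listed at 0 in every library, against 57.7%. All 4 short loci under 300 bases were listed at 0, as were 97.0% of all loci of that size. Of the 13 short loci of at least 300 bases, 3 (23.1%) were listed at 0, against 40.7%, and 9 (69.2%) were expressed, against 46.3%. These 13 loci lay in a stretch of 1200 kb, chr27:4996159-6196146, with 7 of the longer loci. Within the stretch, 1 of 14 expressed loci reached an FPKM of 1 in all 8 tissues, and 4 of 14 members did so outside it, both below the 51% of all expressed loci. The median tau was 0.786 in the stretch and 0.665 outside it.

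By tissue, short loci were most often expressed in nucleated blood cells, rumen and ileum. In blood cells 8 of 17 (47.1%) reached an FPKM of 1, against 16.9% of all loci under 5000 bases. The corresponding counts were 7 in rumen (41.2% against 18%) and 6 in ileum (35.3% against 19.4%). In mammary gland 4 were expressed (23.5% against 18.5%), in whole testes 3 (17.6% against 23.4%) and in abomasum 3 (17.6% against 18.4%). Frontal cortex and uterus had 2 each (11.8%, against 19.3% and 18.3%). The rumen library was the deepest and the ileum library the shallowest after mammary gland, and the part of depth in these counts was not tested.

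**Figure D2:**
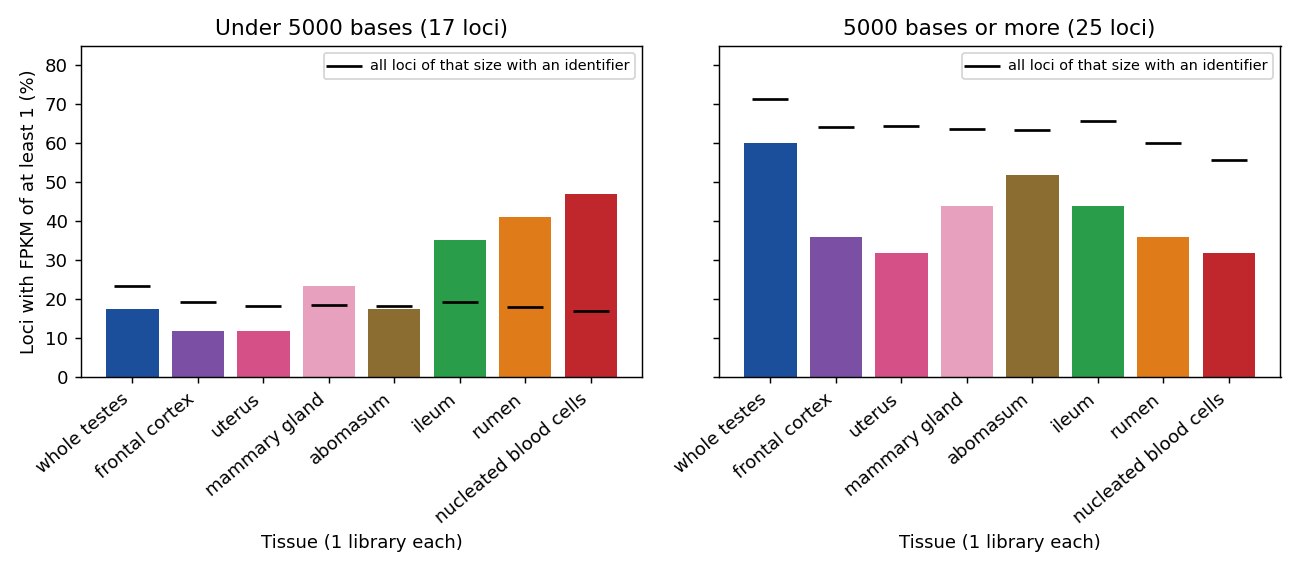
Percent of short loci (left, 17 loci) and longer loci (right, 25 loci) of the window with an FPKM of at least 1 in each of the 8 libraries (bars), with the percent of all loci of that size with an identifier (black lines). Bars of short loci stand above the line most in nucleated blood cells (47.1% against 16.9%), while bars of longer loci stand below it in each tissue.

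Of the short loci closest in size to the RefSeq defensins, 4 of 7 were highest in blood cells. The range of 1677 to 1922 bases held 7 short loci, and it was chosen after the values had been seen. Of these, 6 reached an FPKM of 1 in at least 1 tissue (85.7%, against 55% of the 189 loci of that span), and 4 of the 6 had their highest FPKM in nucleated blood cells, where 11.5% of the 104 expressed loci of that span had theirs. Locus 18 (chr27:5160482-5162196) was listed at 0 in all 8 libraries, or 1 of 7 loci (14.3%, against 29.6%). The 4 loci led by blood cells kept blood cells as their highest tissue when all libraries were rescaled to the same summed FPKM. That outcome was fixed beforehand, since blood cells stood there at 2.88 to 7.95 times the next tissue. The rescaling factors ranged only from 0.574 to 1.44, with 0.978 for blood cells.

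Locus 33 (chr27:6194470-6196146) had the highest value of the 4, with an FPKM of 55.96 in nucleated blood cells. It stood at 7.26 in ileum and 3.40 in rumen and was listed at 0 in whole testes, frontal cortex, uterus, mammary gland and abomasum. Blood cells were 7.71 times ileum, the next tissue.

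At locus 21 (chr27:5327039-5328959), which names 2 transcripts, the FPKM reached 50.9 in blood cells. Mammary gland stood at 6.40, rumen at 5.11, ileum at 1.30, frontal cortex at 1.004 and uterus at 0.528, and whole testes and abomasum were listed at 0. Blood cells were 7.95 times mammary gland. The values in cortex and uterus corresponded to at most 14.8 and 8.46 reads, counted as if the transcript filled the whole locus.

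Locus 29 (chr27:5788620-5790534), which also names 2 transcripts, was listed above 0 in only 2 libraries, blood cells at 27.4 FPKM and rumen at 4.73, a ratio of 5.78 as deposited and 9.86 after rescaling. Locus 19 (chr27:5185012-5186829) had an FPKM of 22.8 in blood cells, 7.93 in rumen, 6.22 in uterus and 0.992 in ileum, and the other 4 libraries were listed at 0. Blood cells were there 2.88 times rumen as deposited and 4.91 times after rescaling, when uterus came second at 8.98. These 4 loci were grouped because blood cells stood first. Rumen was above 0 at all 4, while whole testes and abomasum were at 0 at all 4. Locus 16, of the same span range but led by another tissue, was at 4.62 in whole testes and 8.93 in abomasum.

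Zeros were checked on widely expressed loci. In nucleated blood cells, 14 of 3743 loci stood at 0 although each of the 7 other tissues had 10 FPKM or more, and for no other tissue did more than 1 such locus stand at 0. Whether these zeros are failed estimates was not tested, so such a locus is said only to be listed at 0. The table marked no estimate as failed at any of the 42 members.

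Of the 2 other expressed loci of this size, locus 16 (chr27:5124123-5125987), with the span of LAP, was above 0 in 7 libraries. Its FPKM was 21.2 in mammary gland, 10.6 in rumen, 8.93 in abomasum, 6.77 in blood cells, 4.62 in whole testes, 2.65 in ileum and 0.617 in uterus, and it was listed at 0 in frontal cortex. Mammary gland, the shallowest library, was 2.005 times rumen as deposited. After rescaling it was 4.22 times rumen, and abomasum came second at 8.82 against 25.6 in mammary gland. As deposited, the 21.2 FPKM corresponded to at most 196 reads.

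Locus 23 (chr27:5425378-5427298) shares its span of 1921 bases with locus 21 but was low in all tissues. The FPKM was 1.77 in ileum, 1.42 in blood cells, 0.718 in mammary gland and 0.419 in uterus, or at most 26.97 reads in any library, and the other 4 libraries were listed at 0. The order of ileum and blood cells at this locus is not resolved at this depth.

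**Figure D3:**
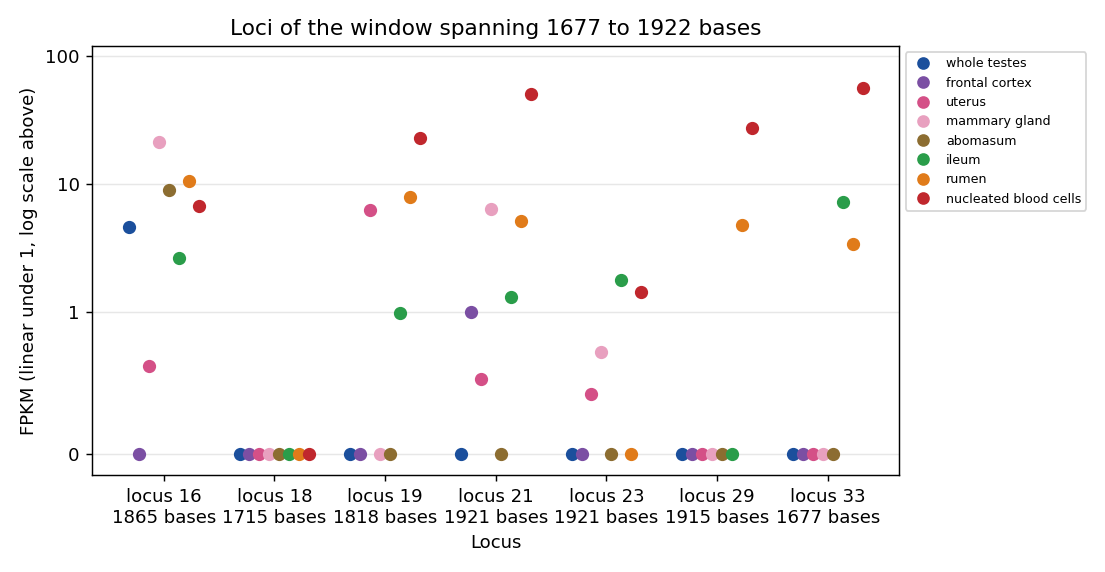
FPKM in each of the 8 libraries (coloured points; linear scale under 1, log scale above) for the 7 short loci spanning 1677 to 1922 bases. Nucleated blood cells are highest at loci 19, 21, 29 and 33 (22.8 to 55.96 FPKM), mammary gland at locus 16 (21.2 FPKM), and locus 18 is at 0 throughout.

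The 3 other expressed short loci differed from each other in pattern. Locus 17 (chr27:5129114-5133057, ENSBTAT00000065099) had the highest FPKM of any short locus, 96.6 in whole testes, with the 7 other libraries at 0. Its neighbour on one side, locus 16, was above 0 in 7 tissues, and its neighbour on the other, locus 18, in none.

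Locus 27 (chr27:5560976-5564586) was highest in ileum and abomasum, as deposited and after rescaling. It had an FPKM of 18.6 in ileum, 12.1 in abomasum, 5.46 in rumen, 3.54 in mammary gland and 3.501 in blood cells, and whole testes, frontal cortex and uterus were listed at 0. Ileum was 1.53 times abomasum.

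Locus 14 (chr27:4996159-5000179) was the only short locus expressed in all 8 tissues (1 of 17, or 5.88%, against 11.5%), with a tau of 0.0949. The FPKM was 11.96 in whole testes, 11.2 in blood cells, 10.9 in abomasum, 10.5 in uterus, 10.04 in mammary gland, 9.03 in frontal cortex, 7.44 in ileum and 6.15 in rumen. The order is not firm, since rescaling placed uterus first at 15.2 and whole testes next at 13.4. Locus 22 (chr27:5367342-5369810) was listed above 0 in ileum alone, at 0.300 FPKM or at most 4.72 reads.

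**Figure D4:**
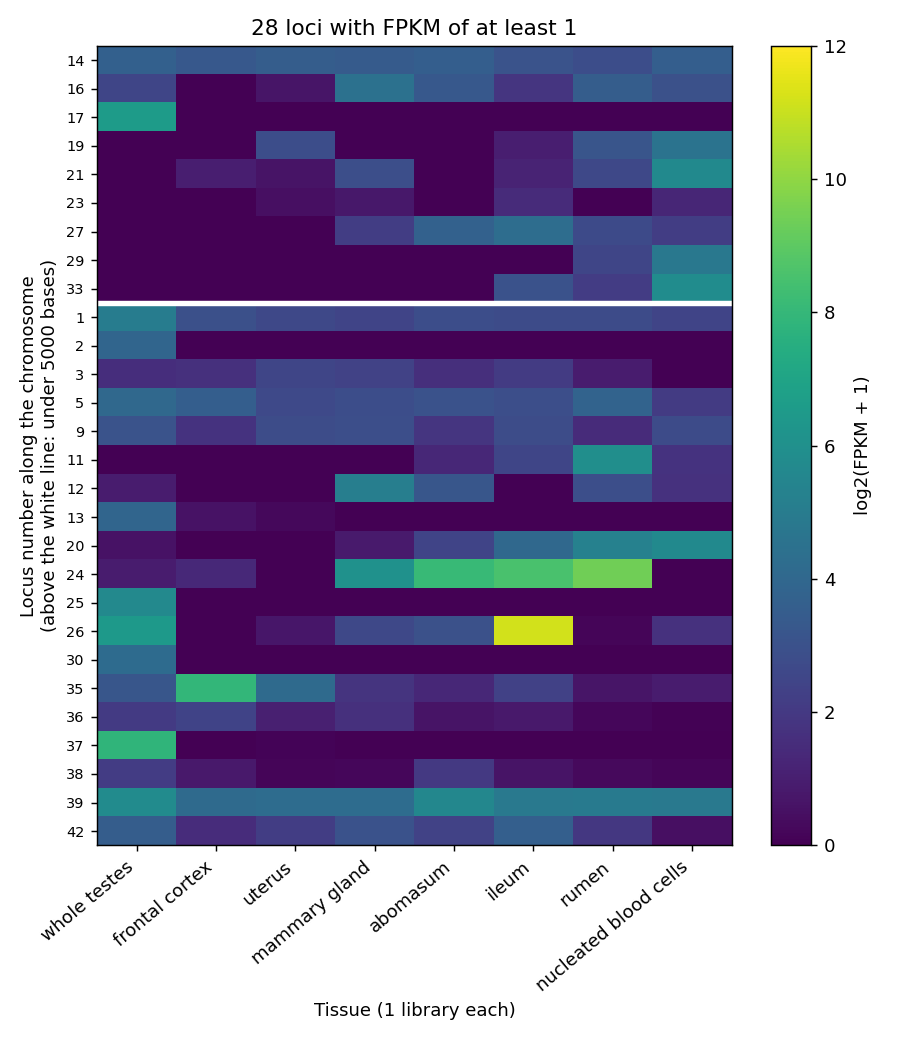
log2(FPKM + 1), in colour, of the 28 loci with an FPKM of at least 1 (rows, by number along the chromosome, short loci above the white line) in the 8 libraries (columns). Locus 26 is brightest in ileum (2348 FPKM), locus 24 is bright in mammary gland, abomasum, ileum and rumen (66.3 to 669 FPKM), and loci 2, 17, 25 and 30 are above 0 in whole testes only.

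The highest levels of the window, as deposited, were found at 2 loci counted as longer, 1 in ileum and 1 in rumen. Locus 26 (chr27:5483408-5541377, ENSBTAT00000009756) reached an FPKM of 2348 in ileum, a level exceeded by 46 of the 24886 loci with an identifier in that library. It was 85.6 in whole testes, 6.87 in abomasum, 5.06 in mammary gland, 2.31 in blood cells, 0.638 in uterus and 0.134 in rumen, and was listed at 0 in frontal cortex. Ileum was 27.4 times whole testes. The single locus made up 82.6% of the FPKM summed over all members in ileum.

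The interval of locus 26 held a second row with the same identifier, locus 25. That row stood at 49.9 FPKM in whole testes and at 0 in the 7 other libraries. How reads were divided between these rows is not known, and the library kit does not mark strand.

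Locus 24 (chr27:5457175-5465029), which lies just before them, was shared by the digestive tissues and the mammary gland. Its FPKM was 669 in rumen, 369 in ileum, 271 in abomasum, 66.3 in mammary gland, 1.58 in frontal cortex and 0.891 in whole testes, and uterus and blood cells were listed at 0. Rumen was 1.81 times ileum as deposited, but after rescaling ileum stood first at 387 against 384 in rumen, so the order of these tissues is not resolved. In both scalings ileum and rumen stood above mammary gland. Locus 24 was the leading member in rumen (76.9% of the summed FPKM of the window), abomasum (68.1%) and mammary gland (33.3%).

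Locus 20 (chr27:5219284-5227970), which names 2 transcripts and lies between loci 19 and 21, also had its highest value in blood cells. The FPKM was 50.4 in blood cells, 37.4 in rumen, 15.5 in ileum, 4.58 in abomasum, 0.810 in mammary gland and 0.520 in whole testes, and frontal cortex and uterus were listed at 0. Blood cells were 1.35 times rumen as deposited and 2.30 times after rescaling.

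An interval of 203856 bases, chr27:4788447-4992302, was shared by 10 rows, 6 of them with an identifier. Among these, locus 11 had an FPKM of 59.2 in rumen, 4.63 in ileum, 2.41 in blood cells and 1.51 in abomasum and was listed at 0 in the other 4 libraries, so that rumen was 12.8 times ileum as deposited and 6.99 times after rescaling. Locus 13, which names 3 transcripts, stood at 14.04 in whole testes, 0.505 in frontal cortex and 0.177 in uterus and at 0 in the others. Locus 12 reached 34.01 in mammary gland and 8.21 in abomasum, locus 9 was expressed in all 8 tissues at 1.79 to 7.34 FPKM, and loci 8 and 10 were listed at 0 throughout.

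Of the longer loci, numbers 2, 25 and 30 were above 0 in whole testes alone, and locus 37 nearly so. Locus 37 (chr27:6674973-6683937, ENSBTAT00000018797 and ENSBTAT00000049366) had an FPKM of 231 in whole testes and 0.0887 in uterus, and was listed at 0 in the 6 other libraries. The value in uterus corresponded to at most 7.29 reads. Its span of 8965 bases was within 1 base of that of SPATA4, a gene named for its association with spermatogenesis. Locus 2, in an interval shared with loci 1 and 3 (chr27:4313369-4554747), stood at 14.03 in whole testes, and locus 30 (chr27:5793034-5801303) at 17.4, both with the 7 other libraries at 0. Locus 2 carries the same identifier as locus 1, which was expressed in all 8 tissues, and locus 30 the same identifier and interval as locus 31, so how reads were divided between them is not known either.

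Frontal cortex led loci 35 and 36. Locus 35 (chr27:6264630-6578492), above 0 in all 8 libraries, had an FPKM of 246 in frontal cortex, 16.9 in uterus, 8.16 in whole testes, 4.04 in ileum, 2.51 in mammary gland, 1.499 in abomasum, 0.915 in blood cells and 0.603 in rumen. Cortex was 14.5 times uterus, and the locus made up 80.9% of the summed FPKM of the window in that library.

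Few longer loci were broad. Of the 25, 4 (16%) were expressed in all 8 tissues (loci 1, 5, 9 and 39), against 45.1% of all loci of that size. Locus 39 (chr27:6752943-6805803) was the most even of them, with a tau of 0.190. Its FPKM was 54.5 in whole testes, 46.6 in abomasum, 28.9 in rumen, 28.3 in ileum, 28.2 in blood cells, 17.96 in mammary gland, 17.9 in uterus and 16.8 in frontal cortex. The other expressed longer loci, numbers 3, 36, 38 and 42, had highest values of 3.41 to 11.5 FPKM, and locus 6 stayed at or below 0.605.

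A locus was called enriched in a tissue with an FPKM of at least 1 if FPKM + 1 exceeded that of every other tissue by 5 times or more. It was found for 11 of 42 members (26.2%), against 12.1% of all loci with an identifier and 39 of the 244 loci in the rest of chromosome 27 (16.0%). Of these, 6 were enriched in whole testes (14.3% against 6.61%), namely loci 2, 13, 17, 25, 30 and 37. Outside the window, 32 of the 244 loci of chromosome 27 (13.1%) were enriched in whole testes, so the share in the window was near that of its chromosome. Nucleated blood cells had 2, loci 21 and 33 (4.76% against 0.932%), and the rest of chromosome 27 had 0 of 244. Frontal cortex (locus 35, 2.41% in the background), ileum (locus 26, 0.41%) and rumen (locus 11, 0.763%) had 1 each. Uterus, mammary gland and abomasum had 0 (0.402%, 0.217% and 0.386% in the background). Locus 29 fell just short in blood cells, where FPKM + 1 was 4.95 times that in rumen. It passed after rescaling, at 7.48 times, which gave 12 enriched members.

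The count rested on shared intervals and on the testes library. Of the 11 enriched loci, 7 were among the 15 members that shared their interval with another row. The 4 others, loci 17, 21, 33 and 37, stood alone. No share was computed over all loci that stand alone, so the 26.2% of enriched members has no like background. Without the whole testes library 5 members were enriched, and the share over all loci was not computed for that setting.

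Longer loci reached an FPKM of 1 less often than other loci of their size, both in each tissue and in at least 1 tissue. Of the 25, 19 (76%) reached an FPKM of 1 in at least 1 tissue, against 84.4% of all loci of at least 5000 bases, and 5 (20%) were listed at 0 in every library, against 10.6%. Of the 10 that stood alone in their interval, 8 (80%) were expressed and 1 (10%) was at 0. The same shares over all longer loci that stand alone were not computed. In whole testes 15 of the 25 were expressed (60% against 71.5%) and in abomasum 13 (52% against 63.4%). Mammary gland and ileum had 11 each (44%, against 63.7% and 65.7%), frontal cortex and rumen 9 each (36%, against 64.1% and 60%), and uterus and blood cells 8 each (32%, against 64.5% and 55.8%). Their highest value was in whole testes for 10 of the 19 (52.6%, against 31.2%), whereas whole testes led 2 of the 9 expressed short loci (22.2%, against 28.4%) and nucleated blood cells led 4 of them (44.4%, against 11.4%). Over all members, whole testes led 12 of 28 (42.9%, against 30.8% of all loci), and in the rest of chromosome 27 whole testes led 76 of 175 (43.4%). The median tau was 0.713 for the longer loci, against 0.416 over all expressed loci of that size, and 0.781 for the short loci, against 0.672.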

How the data were processed

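According to the labels and the methods of the study, total RNA was sequenced as single-end reads from 8 cattle tissues, and the authors aligned filtered reads to UMD3.1 with TopHat2 2.0.13 and compared levels with Cufflinks at default parameters. The deposited values are FPKM, scaled between libraries by the authors' software, for 36801 loci in 28 pairs of tissues, and 0 values differed between pairs. The authors' fold changes, p-values and q-values were not used. Starts in the table count from 0 and are printed from 1.

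Members and lists were chosen with earlier results of these data known. Values were computed with Python 3.11.15, pandas 2.3.3 and scipy 1.17.1, and the calls were tested on simulated data. Depth was recovered from unnamed loci of 89 to 130 bases with a normal fragment length (mean 200, SD 80, minimum 87), as the depth that gave whole reads within 0.03 for 97.7% to 100% of loci. This depth carries the authors' scaling and may differ from the mapped reads.

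An FPKM of 1 was the limit for expression, and tau used log2(FPKM + 1). Values in all libraries were given for the short loci of at least 1 FPKM, the 8 highest longer loci and the enriched loci, and at most 4 identifiers were printed. Other loci are named by number and were chosen after their values were seen. Alternatives covered thresholds, size limits, window edges, unnamed rows, repeated identifiers, pseudocounts, rescaling and leaving out each tissue. Reads per locus are upper bounds, since the transcript may be shorter than the locus. No sequence is printed, because none was in the sources used here, and expression of listed defensin and tissue marker genes by symbol is not analysed here. The defensin list was used for RefSeq spans only.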

Additional observations from a re-analysis of the deposited data

Results flagged for a closer look

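Loci without an identifier were outside the comparisons above, and all 18 of them in the window were above 0 in at least 1 library. Such loci may be listed only because reads were found there, so this is no contrast with the members. For the 9 of 124 to 507 bases, the highest value corresponded to 10 to 15 reads, more than the 3 that a count of 0 allows, while for the longer ones only an upper bound on reads is known. Whole testes led 11 of the 18, and the share it led over all loci without an identifier was not computed. Its FPKM was 17.8 at chr27:5048769-5049027, 5.48 at chr27:5057745-5065978, 6.08 at chr27:5084270-5084670 and 9.77 at chr27:5095013-5095351. The locus at chr27:5239625-5275165, between loci 20 and 21, stood at 22.9 FPKM in whole testes and at 0 elsewhere, as did that at chr27:6181651-6189592, just before locus 33, at 43.7. Further on, whole testes had 52.7 FPKM at chr27:6751129-6751339, 5.39 at chr27:6751702-6752828 and 14.9 at chr27:7394658-7394971.

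The interval chr27:4788447-4992302, which holds locus 11, had 4 such rows. Of these, 1 stood at 122.5 FPKM in rumen, 1 at 22.5 in abomasum, and the others at 11.3 and 9.71 in whole testes alone. Abomasum also led chr27:7114917-7115040 at 487 FPKM and chr27:7144920-7145049 at 321. On such short loci a high FPKM stands for few reads, and 487 FPKM corresponded to 11 reads. The loci at chr27:5422380-5422626 and chr27:5704830-5705602 stood at 31.6 and 13.9 FPKM in ileum only, and frontal cortex led chr27:6811769-6812275 at 4.72 FPKM.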

How the results depend on the processing

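No paired analysis was possible because no tissue had a second library and no value came from a test. A count held where it stayed within 1.5 times its value and a median tau where it moved by at most 0.05, and 104 of 129 alternative values held; causes were not tested unless the construction shows them. The short loci at 0 in every library (7) held throughout. Adding loci without an identifier gave 20 expressed short loci, 8 led by whole testes, 25 enriched loci and a median tau of 0.924 for short and 0.796 for longer loci. Leaving out several or repeated identifiers gave 9 expressed longer loci, 3 at 0, 4 enriched loci and a tau of 0.620. Leaving out shared intervals, added after the data had been seen, gave 8, 1, 4 and 0.618. Short loci led by whole testes numbered 0 with a limit of 3000 bases, 4 with 10000 bases, where 3 longer loci were at 0, and 1 after rescaling, which shifted rumen by -0.80 and uterus by 0.53 (log2). A pseudocount of 0.1 gave a tau of 0.684 for short and 0.567 for longer loci. With each tissue left out, expressed loci ranged from 8 to 9 (short) and 14 to 19 (longer), loci at 0 from 7 to 8 and 5 to 8, enriched loci from 5 to 11, and tau from 0.727 to 0.833 and 0.601 to 0.725. The outer values of 14, 8, 5 and 0.601 were those without whole testes. Replicate spread is unknown, which limits every comparison of tissues.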
